A study of Mus musculus with 11 samples.

Results

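Semaphorins, plexins and neuropilins form one guidance system, and the genomic regions near 8 of their genes in which acetylation of histone H3 at lysine 27 (H3K27ac) was listed as different between control and Tbx5G125R/+ atria are described here. The regions were chosen by a rule that uses measured values: each stands in the deposited table of regions that the authors had selected on the genotype difference of the same libraries, and its top bin, the 500 bp window with the strongest difference in the authors' test, lay in or within 100 kb of the gene, with no protein-coding gene nearer. Of the 1652 listed regions, 9 met the rule, at Sema3a, Sema5a, Sema6a, Sema6d (2 regions), Plxna2, Plxna4, Nrp1 and Nrp2. The genotype difference of these 9 regions is therefore a description, no p is given for it, and the pass counts of a count test below describe the table only. All 9 top bins lay inside the gene body, at a distance of 0 from the gene. The nearest listed region outside the rule lay 135.381 kb from Plxna2, inside Cd34, with 2.09 ± 2.62 normalised reads in control and 28.1 ± 22.4 in Tbx5G125R/+ libraries (mean ± SD).

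H3K27ac marks active promoters and enhancers, and it was mapped by CUT&RUN, in which an antibody bound to the mark directs a nuclease that releases the underlying DNA for sequencing. Nuclei came from pooled left and right atria of mice aged 8 to 12 weeks and were sorted for pericentriolar material 1 (PCM1), a protein around the nucleus of cardiomyocytes. Tbx5G125R/+ mice (n = 6 libraries) carried 1 copy of a CRISPR-Cas9 knock-in of a missense change in Tbx5, a T-box transcription factor of the atria, carried in the germline and so not confined to cardiomyocytes. Controls (n = 5 libraries) bear only that word as genotype label, the sex of the mice is not in the labels, and the 2 groups shared age, tissue and sort. Neither the labels nor the study's text say that each library came from its own animal, so the spread given below is that between these libraries and may be in part technical.

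Semaphorins are secreted or membrane-bound guidance proteins, first known for repelling growing axons. They act through plexins, receptors whose intracellular part acts on small GTPases and thereby on the cytoskeleton, and most of the secreted class 3 semaphorins need a neuropilin as co-receptor. In the heart the system is known for the patterning of sympathetic nerves, the outflow tract and vessels, and neuropilins also bind vascular endothelial growth factors. Among the genes listed, Sema3a is a ligand of the complex of Nrp1 with A-type plexins such as Plxna4, and Sema6a is a ligand of Plxna2 and Plxna4.

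Promoter windows (250 bases before to 50 after an annotated start site) were available for 6 of the 8 genes. Of the 9 regions, 2 overlapped a promoter window of any gene, against 15.9% of all listed regions. The first overlap is at the start of Sema5a itself. The second is at the start of the long noncoding RNA Gm29083, which is transcribed from the opposite strand inside Nrp2. Both windows are printed because they are the only start sites in the promoter table that the acetylated stretches cover, apart from that of the noncoding Snhg18 beside Sema5a. Sema6a and Plxna4 had no window there, so an overlap at their start sites could not be counted. Sequences are from RefSeq, build GRCm38.p6 (mm10), and capitals mark each match of GGGCGG, the GC box bound by SP and KLF factors, or of its reverse complement.
Sema5a, chr15:32244563-32244862, plus strand: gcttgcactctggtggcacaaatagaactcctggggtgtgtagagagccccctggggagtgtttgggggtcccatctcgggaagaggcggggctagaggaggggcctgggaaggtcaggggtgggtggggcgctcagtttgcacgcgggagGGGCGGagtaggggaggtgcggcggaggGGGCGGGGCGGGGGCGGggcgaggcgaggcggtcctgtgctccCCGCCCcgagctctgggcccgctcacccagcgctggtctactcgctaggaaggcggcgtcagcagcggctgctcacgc
Gm29083, chr1:62718138-62718437, minus strand: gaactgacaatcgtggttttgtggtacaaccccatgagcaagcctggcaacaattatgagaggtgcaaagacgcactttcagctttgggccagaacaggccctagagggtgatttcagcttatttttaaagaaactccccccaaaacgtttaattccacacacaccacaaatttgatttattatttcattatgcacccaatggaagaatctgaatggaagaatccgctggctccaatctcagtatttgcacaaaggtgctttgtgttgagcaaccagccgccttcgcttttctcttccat
The Sema5a window had a GC content of 71.3% and 23 CpG dinucleotides, whereas the Gm29083 window had 44% and 6, and the medians over 32851 windows were 52.7% and 7. GGGCGG occurred 5 times in the Sema5a window, 4 on the plus and 1 on the minus strand, with neighbouring matches that partly overlap. It was not found in the Gm29083 window, and 35.7% of all windows hold it. Of the member windows that the 9 regions did not cover, that of Nrp2 had 5 matches, Plxna2 2, Nrp1 1 and Sema3a 0. The 2 Sema6d windows had 2 and 0. Other motifs were also searched on both strands and found in neither printed window. These were the T-box motif AGGTGTGA, held by 1.28% of all windows. The motif AGATAAG of zinc finger GATA factors was held by 3.04%. The TEAD motif GGAATG was held by 14.7%, and the MEF2 site by 0.557%. These matches describe letters in a window and do not show that a factor binds there. The sequence of the top bins was not analysed here.

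Levels are given as normalised reads in the top bin, for which the authors scaled each library's reads with its own size factor. Whole reads recovered from them summed to 27118 to 72442 per control and 43183 to 161738 per Tbx5G125R/+ library over all listed top bins, sums that the choice of mostly higher regions raises in Tbx5G125R/+. Size factors were 0.513 to 1.47 in control and 0.457 to 2.04 in Tbx5G125R/+. Control replicate 5 had no read in 60.6% of the listed top bins and Tbx5G125R/+ replicate 5 in 5.63%, and these 2 libraries had the smallest size factor of their genotype. The top bin was picked for its difference, and folds over whole regions were not computed.

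All 9 regions had a higher mean level in Tbx5G125R/+ than in control, as had 81.1% of all listed regions. The 2 genotypes did not overlap in 8 of the 9, every Tbx5G125R/+ library lying above every control library, against 73.2% of all listed regions. The rule used this contrast, so nothing is read from either count. The 9 regions fell into 2 groups by control level. Sema3a, Sema5a, Sema6a and Plxna2 had moderate levels, with means of 38.0 to 48.3 normalised reads. Sema6d, Plxna4, Nrp1 and Nrp2 had lower levels, with means of 0.675 to 9.18. Nrp2 was the highest of these, with reads in every control and a mean above that of 64.1% of listed regions. In Tbx5G125R/+ the first group reached means of 130 to 222 and the second 21.1 to 92.6. The first group stood at 3.05 to 4.60 times control and the second at 7.37 to 34.3 times, where the ratios of Sema6d and Plxna4 rest on 3 to 7 control reads. The control level that split the groups is also the denominator of these ratios, so nothing is read from their order. All listed bins were equally long, so that levels can be set side by side.

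**Figure D1:**
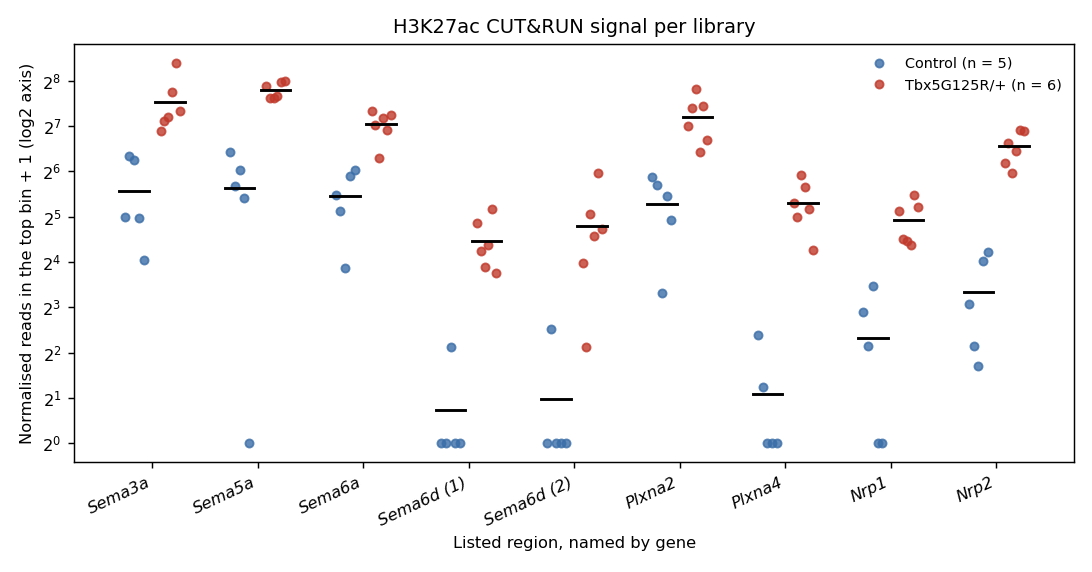
H3K27ac CUT&RUN signal of the 9 regions: the vertical log2 axis gives normalised reads in the top bin plus 1, each point is a library (control, n = 5; Tbx5G125R/+, n = 6) and each bar is the group mean plus 1. The genotypes are apart in 8 regions and overlap in the second Sema6d region, where 1 Tbx5G125R/+ library at 3.35 lies below 1 control library at 4.77.

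Sema3a encodes a secreted semaphorin that repels sympathetic axons in the developing heart. Its region (chr5:13278001-13284250, 6.25 kb) lay 33.0% along the gene from its lower coordinate, inside a gene body of 478.664 kb. The start site of Sema3a with a promoter window, on the plus strand, lay 113.784 kb above the centre of the top bin. The top bin was thus upstream of that start site. The 5 control libraries had 30.9, 79.7, 75.3, 30.5 and 15.6 normalised reads. The Tbx5G125R/+ libraries ran from 117 to 335 with a median of 153. Control replicates 2 and 3 were about as high as each other and well above the remaining controls, and Tbx5G125R/+ replicate 5 stood highest, but no control reached the lowest Tbx5G125R/+ library. The means were 46.4 ± 29.1 and 185 ± 80.3 (SD), 3.98 times control, and the fitted log2 fold was 1.95 ± 0.36 (SE, edgeR). Leaving out Tbx5G125R/+ replicate 5 lowered the ratio to 3.34, and leaving out control replicate 2 raised it to 4.86.

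Sema5a encodes a membrane semaphorin whose extracellular part also carries thrombospondin repeats. Its region (chr15:32240001-32248750, 8.75 kb) overlapped the promoter window of its own gene, as none of the other regions did at the 6 genes with such a window, with the top bin 1.687 kb downstream of that start. The controls had 85.2, 50.4, 64.1, 41.5 and 0 normalised reads. In Tbx5G125R/+ the lowest library had 196, the median was 218 and the highest 253. The zero belongs to control replicate 5, the shallowest control. That library held 8, 33 and 15 reads at Sema3a, Sema6a and Plxna2, and the part of depth in the zero was not tested. The Tbx5G125R/+ libraries lay closer together than in any other of the 9 regions, with an SD of 12.3% of their mean. Means were 48.3 ± 31.6 and 222 ± 27.4, 4.60 times control, with a log2 fold of 2.17 ± 0.39. The ratio was 3.68 without control replicate 5. The same stretch of the CpG-rich promoter printed above also holds the start of Snhg18, a noncoding RNA on the opposite strand whose start site lies 151 bp from that of Sema5a, and H3K27ac at this distance cannot be assigned to either gene.

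Sema6a encodes a membrane semaphorin that binds Plxna2 and Plxna4. Its region (chr18:47364001-47371250, 7.25 kb) lay at the upper-coordinate end of the gene, the top bin 4.2 kb inside that end. No promoter window was available for Sema6a. The region covered that end of the gene, so any start site there would lie under it and was not counted among the promoter overlaps. Control values were 43.7, 34.1, 13.5, 58.2 and 64.4 normalised reads. Tbx5G125R/+ values ran from 77.3 to 159 with a median of 137. This was the narrowest separation among the moderately acetylated regions, with the lowest Tbx5G125R/+ library, replicate 3, close above control replicate 5. The means of 42.8 ± 20.2 and 130 ± 29.5 gave 3.05 times control, the smallest ratio of the 9, and a log2 fold of 1.63 ± 0.35. Unlike at Sema5a, control replicate 5 was here the highest control.

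Sema6d encodes a membrane semaphorin known in chick for guiding cells of the forming heart. It was the only gene with 2 listed regions, both deep in a gene body of 577.847 kb. The first (chr2:124381751-124384500, 2.75 kb, 50.9% along the gene) had 3 reads in all controls together, all in replicate 3, which gives that library 3.37 normalised reads and the 4 others 0. Tbx5G125R/+ libraries had 12.5 to 35.0 with a median of 18.7. Every Tbx5G125R/+ library thus carried signal where 4 of 5 controls had no read. The means were 0.675 ± 1.51 and 21.1 ± 8.72. The ratio of pooled reads was 29.2, with a 95% counting interval of 9.84 to 143, and the log2 fold of 4.74 ± 0.88 rests on those 3 control reads. Without control replicate 3 the controls held no read. With 3 reads assumed over the remaining 4 controls the ratio came to 25.6, which is no lower bound, since it leaves out the spread between libraries.

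The second Sema6d region (chr2:124435251-124436000) was only 0.75 kb wide. Its 7 control reads were all in replicate 2, which had 4.77 normalised reads, and the 4 other controls had 0. Tbx5G125R/+ libraries ran from 3.35 to 61.3 with a median of 24.1. This was the one region in which the genotypes overlapped, since Tbx5G125R/+ replicate 2 lay below control replicate 2. It was also the most variable in Tbx5G125R/+, with an SD of 73.8% of the mean. Means were 0.954 ± 2.13 and 26.7 ± 19.7, 28.0 times control, whereas the ratio of pooled reads was 13.8 (95% counting interval 6.56 to 34.8). The fitted log2 fold was 4.17 ± 0.90. Without control replicate 2, the only control with reads, the same assumed 3 reads gave a ratio of 27.2. That value is likewise no lower bound. These intervals cover counting error only, since reads multiplied by PCR are not independent molecules.

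Plxna2 encodes an A-type plexin, the receptor of several semaphorins. Its region (chr1:194807751-194810500, 2.75 kb) lay near the far end of the gene, with the top bin centred 188.921 kb from the start site. Control libraries had 57.5, 51.1, 9.0, 42.9 and 29.3 normalised reads. Tbx5G125R/+ libraries had 84.6 to 223 with a median of 147. Control replicate 3 was low and Tbx5G125R/+ replicate 3 was the highest of its group, and all 6 Tbx5G125R/+ libraries exceeded all controls. Means were 38.0 ± 19.3 and 146 ± 51.3, 3.85 times control, with a log2 fold of 1.93 ± 0.37.

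Plxna4 encodes the plexin that serves both Sema3a, together with Nrp1, and Sema6a. Its region (chr6:32395001-32403000, 8.0 kb) lay 57.7% along the gene from the lower coordinate. Controls had 4.26, 1.36, 0, 0 and 0 normalised reads, 6 reads in all. Tbx5G125R/+ libraries had 18.3 to 59.8 with a median of 36.6. The 2 controls with any signal stayed far below the lowest Tbx5G125R/+ library. Means were 1.12 ± 1.85 and 38.6 ± 14.6, the largest ratio of the 9 at 34.3 times control, with a log2 fold of 4.81 ± 0.84. The pooled-read ratio was 28.2 (95% counting interval 12.8 to 77.4). Without control replicate 1 only 2 control reads remained, and that ratio became 67.1 (18.4 to 556), so the size of this fold depended on a single library.

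Nrp1 encodes a co-receptor for Sema3a and for vascular endothelial growth factor. Its region (chr8:128433501-128476750) was 43.25 kb wide, wider than 98.8% of listed regions, and stretched from the top bin mainly towards the far end of the gene. Controls had 6.39, 3.41, 10.1, 0 and 0 normalised reads. Tbx5G125R/+ libraries had 19.6 to 43.8 with a median of 27.8. The 2 genotypes stayed apart although both were low, with 20 control reads and 250 Tbx5G125R/+ reads in all. Means were 3.98 ± 4.35 and 29.3 ± 9.89, 7.37 times control, with a log2 fold of 2.75 ± 0.74. Without control replicate 3, the highest control, the ratio was 12.0.

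Nrp2 encodes the co-receptor for Sema3f and for vascular endothelial growth factor C. Its region (chr1:62715001-62722500, 7.5 kb) had its top bin centred 15.933 kb from the Nrp2 start site and 1063 bp from the start of Gm29083. Controls had 7.46, 3.41, 2.25, 15.2 and 17.6 normalised reads. Tbx5G125R/+ libraries had 61.7 to 120 with a median of 92.0. All controls had reads here, unlike at Nrp1, and the gap between the highest control and the lowest Tbx5G125R/+ library was wide. Means were 9.18 ± 6.91 and 92.6 ± 24.1, 10.1 times control, with a log2 fold of 3.43 ± 0.50. The promoter window of Gm29083 printed above had 6 CpG dinucleotides, close to the median of 7 over all windows. Signal from Gm29083 and from Nrp2 cannot be told apart here.

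**Figure D2:**
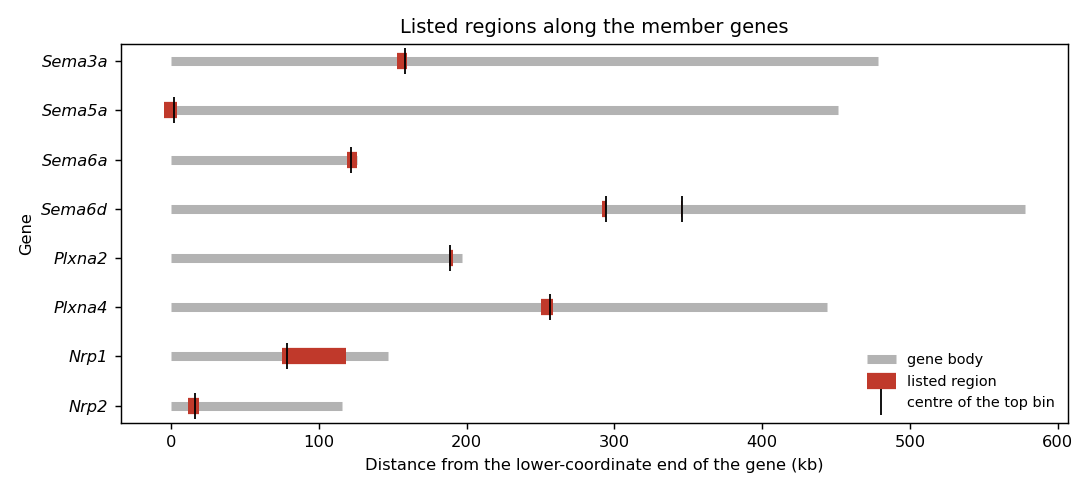
Place of the 9 regions in their genes: the horizontal axis gives the distance in kb from the lower-coordinate end of each gene, grey bars are gene bodies, red bars listed regions and black ticks centres of the top bins. The Sema5a region lies over the lower-coordinate end of its gene, the Nrp1 region is 43.25 kb wide, and the second Sema6d region (0.75 kb) is narrower than its tick.

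Placed along the genes, the 9 top bins were mostly internal, as the map of the regions along their genes shows. All 9 lay inside a protein-coding gene, against 63.1% of all listed regions. Among the 6 genes with a promoter window only Sema5a had its top bin within 10 kb of the gene's start site. Sema6a, with its top bin 4.2 kb inside 1 end of the gene, and Plxna4 had no window. The 9 regions had a median width of 7250 bp, against 3000 bp over all listed regions. Their median control level was 9.18 normalised reads against 3.68, and their median Tbx5G125R/+ level was 92.6 against 29.9. For the fold the order was the reverse, with a median of 7.37 times control against 9.41 over the 1571 listed regions with a control read. The 1339 listed regions higher in Tbx5G125R/+ had a median width of 2500 bp. Their median levels were 2.27 in control and 30.5 in Tbx5G125R/+. Their median ratio was 12.5, over the 1258 with a control read. These are descriptions of called regions with no test.

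In the edgeR quasi-likelihood count test over all listed top bins, 8 of the 9 regions were higher in Tbx5G125R/+, against 74% of all listed regions. The count fell to 4 with libraries scaled by total reads and to 0 with TMM factors. The contrast chose the regions, so nothing is read from these counts. Nrp1 was the exception under the deposited size factors, and it passed without control replicate 3, with DESeq2, with median-of-ratios size factors and with adjustment over listed regions only. The median log2 fold of the 9 was 2.75, against 3.22 over all listed regions and 3.56 over those that were higher in Tbx5G125R/+. The 4 moderately acetylated regions had smaller ratios than most listed regions, with only 22.5% to 28.9% of listed regions below them. Plxna4 and both Sema6d regions had larger ones, with 79.2% to 82.7% below them. These shares count the listed regions that were lower in Tbx5G125R/+, which lie below any gain. Over the 1258 higher regions with a control read, the quartiles of the ratio were 6.84 and 23.4. The 4 moderately acetylated regions lay below the first, and Plxna4 and both Sema6d regions above the second.

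**Figure D3:**
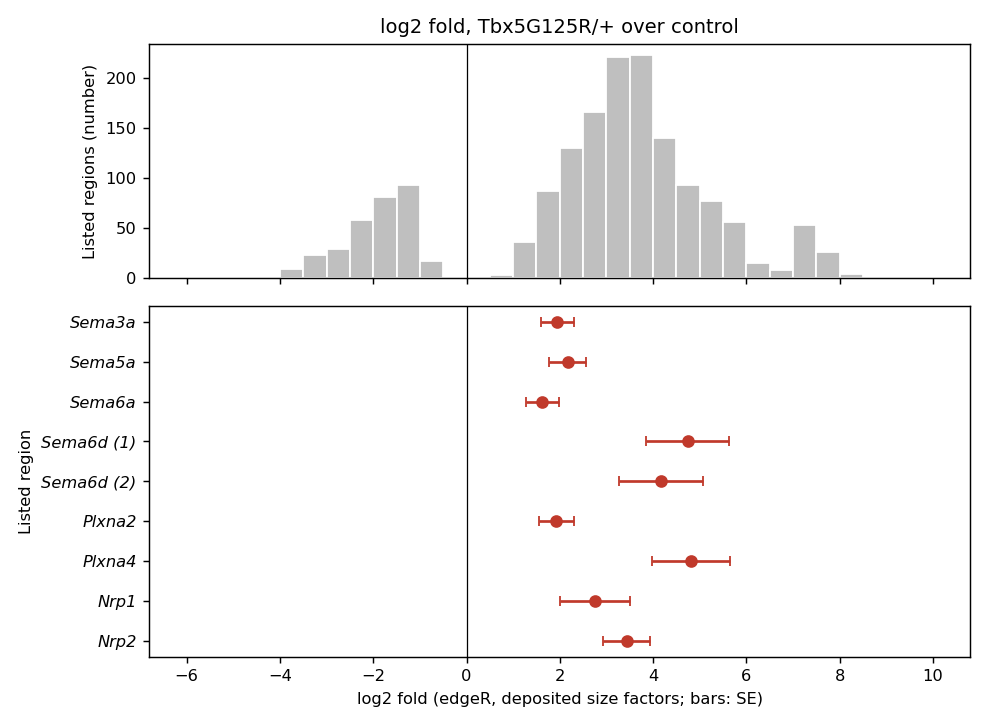
Fold of the 9 regions beside all listed regions: the upper panel counts the 1652 listed regions by log2 fold (Tbx5G125R/+ over control), and in the lower panel points are the fitted log2 folds of the 9 regions with bars for the SE. All 9 lie above 0 with the deposited size factors, from 1.63 at Sema6a to 4.81 at Plxna4, around the median of 3.22 for all listed regions.

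The size of the difference depended on how libraries were scaled, and at Sema6a its sign did. TMM factors computed on the listed top bins moved the median log2 fold of all listed regions by -1.72, total reads in these bins moved it by -0.75, and median-of-ratios size factors moved it by 0.15. Under TMM the log2 fold of Sema6a was -0.07, and those of Sema3a, Plxna2 and Sema5a were 0.17, 0.19 and 0.41, whereas Nrp1 stood at 1.02, Nrp2 at 1.70, the Sema6d regions at 3.11 and 2.42 and Plxna4 at 3.12. The value at Sema6a, the smallest of the 9 before, crossed 0 with this common shift. All but Sema6a kept their direction under every scaling tried, and the receptor Plxna4 and Sema6d lay above the others under each. Under total reads all 9 were higher in Tbx5G125R/+, but the genotypes also overlapped at Sema3a, Sema6a and Plxna2, leaving 5 regions apart, against 50.6% of all listed regions. These alternatives, the median-of-ratios factors included, rest only on listed bins, of which most were chosen as higher in Tbx5G125R/+. The deposited size factors came from the authors' processing. Median-of-ratios factors use only bins with a read in every library, and 67.9% of listed bins had 1 or more controls without a read.

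**Figure D4:**
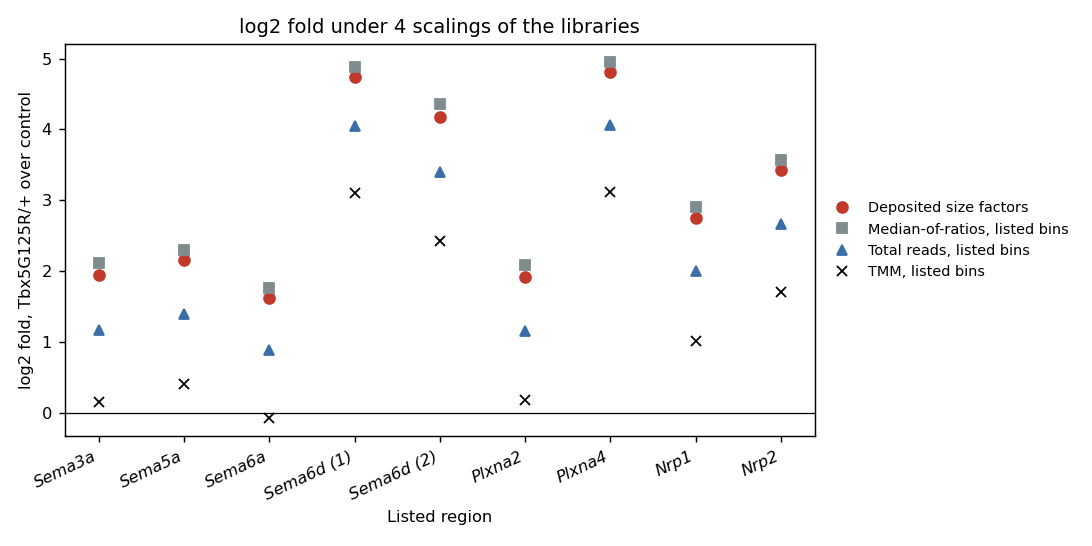
log2 fold of the 9 regions under 4 scalings of the libraries: the vertical axis is Tbx5G125R/+ over control and each symbol is a scaling (deposited size factors, median of ratios, total reads and TMM, the last 3 computed on the listed top bins). Sema6a is at -0.07 under TMM, the one value below 0, and Plxna4 is at 3.12 or more.

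Libraries differed in how much they carried at these genes. Summed over the 9 regions, controls had 127 to 235 normalised reads and Tbx5G125R/+ libraries 801 to 1175. The lowest sum was that of control replicate 5 and the highest that of Tbx5G125R/+ replicate 5, the shallowest library of each genotype. Tbx5G125R/+ replicate 5 was the highest of its group in 5 of the 9 regions and in 29.96% of all listed regions, and control replicate 5 had no read in 5 of the 9. With both left out, an alternative chosen after seeing the data, all 9 regions were still higher in Tbx5G125R/+ and 8 still did not overlap. The part of depth in the levels was not tested beyond this.

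Within the family, 8 of 31 genes had a listed region: 4 of 20 semaphorins, 2 of 9 plexins and both neuropilins. The share of all protein-coding genes with a listed region was not counted. No enrichment is therefore read from these gene counts or from those of the gene lists below. All 9 regions were higher in Tbx5G125R/+ and 0 lower, with Sema6a the exception under TMM. The plexins with a region were both of the A type, and none was listed at the B, C and D types. The 8 genes were long, with a median of 320.365 kb against 26.473 kb for the other 23 and 17.149 kb for all 21896 protein-coding genes of the annotation. Of the 5 longest genes of the family 4 had a region, and the shortest with one was Nrp2 at 115.376 kb. Among the 23 without a region 6 were over 100 kb, the longest being Sema3e at 231.414 kb. The part of gene length in which genes were listed was not tested.

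**Figure D5:**
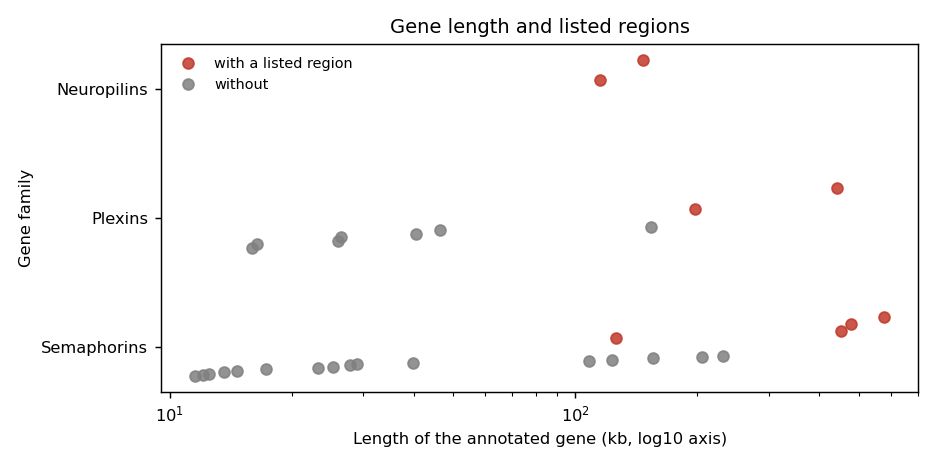
Length of the 31 family genes on a log10 axis in kb, by family: red points are the 8 genes with a listed region and grey points the 23 without. All red points lie at 115.376 kb or above, and the longest grey point is Sema3e at 231.414 kb.

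Of 36 co-receptors and effectors of semaphorin signalling, 5 had 9 listed regions, 8 higher and 1 lower in Tbx5G125R/+, a share to be set beside the 81.1% of all listed regions that were higher. Kdr, the vascular endothelial growth factor receptor that partners with Nrp1, had 5 regions, all higher, at 2.94 to 29.1 times control. Those with a top bin outside the gene lay 0.577, 31.8 and 58.1 kb from it. Dpysl5, a collapsin response mediator of the growth cone, had 2.11 ± 3.599 normalised reads in control and 27.3 ± 12.7 in Tbx5G125R/+. At Limk1, a kinase that acts on the actin-severing protein cofilin, the levels were 5.42 ± 7.44 and 43.3 ± 13.8. A region 16.8 kb from Itga1, an integrin subunit, had 1.41 ± 1.996 and 28.0 ± 22.0 with overlapping genotypes. Mical2, an enzyme that oxidises actin, was the opposite, with 243 ± 72.2 in control and 95.6 ± 33.5 in Tbx5G125R/+.

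Semaphorin genes are also used by cells other than cardiomyocytes. Listed regions assigned to markers of such cells, in or within 100 kb of the gene, are given beside them. Of 34 genes that mark other cell types of the heart, 8 had 13 listed regions, 12 higher and 1 lower in Tbx5G125R/+ where 81.1% of all listed regions were higher, and their summed level was 200 to 417 in control and 844 to 1164 in Tbx5G125R/+ libraries. Fibroblast markers accounted for 5 regions assigned to Col1a2, Dcn, Pdgfra and Postn, with sums of 9.75 to 65.1 and 227 to 433. Of these only the Pdgfra top bin lay inside its gene. The others lay 0.868 kb from Col1a2, 40 and 97.25 kb from Dcn and 89.709 kb from Postn. Endothelial markers accounted for 7 regions, 6 of them higher, in or near Kdr, 3.363 kb from Cdh5 and, lower, inside Erg. Kdr stands in the effector list as well. Rgs5, a pericyte marker, had 1. No region was listed for 7 glial and neuronal, 5 macrophage and leukocyte and 3 epicardial markers, nor for Pecam1, Tek, Tcf21, Col1a1 or Myh11. Of 9 cardiomyocyte markers, Actn2 and Ryr2 had 3 regions, all lower, with sums of 587 to 909 in control and 235 to 333 in Tbx5G125R/+. In sorted but pooled nuclei, a different mix of cells and a different amount of mark per cell cannot be told apart, and the part of either in the 9 regions was not tested. The table lists called regions only, so the sort itself could not be checked against markers at unlisted genes.

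For each gene, the listed region outside the family whose level followed it most closely over the 11 libraries was found by Pearson correlation of log2(normalised reads + 1), as a description with no p. These were regions at Bmp2k and Paqr3 for Sema3a (r = 0.976), Pcsk6 for Sema5a (r = 0.990), Mgat3 for the first Sema6d region (r = 0.994), Cdc42ep3 for Plxna2 (r = 0.945), Auts2 for Plxna4 (r = 0.992), P3h2 for Nrp1 (r = 0.990) and Iqgap2 for Nrp2 (r = 0.975). For Sema6a the closest region had r = 0.963 and no gene within 100 kb. The libraries share depth and the genotype contrast that selected the table, and 12.5% to 65.1% of the other 1643 listed regions had r over 0.8 with a given member.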

How the data were processed

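The authors deposited a table of 1652 regions, listed for a genotype difference in H3K27ac. Per the labels, the build is mm10 and BWA, bedtools and DESeq2 were used, with versions not given in the sources used here. The signal deposited for a library is the read count of the top bin divided by a size factor, and 100% of the values gave whole reads within 0.05 reads. Columns with the authors' own log2 fold change and adjusted p-value were not used. Each top bin was assigned to the nearest protein-coding gene of RefSeq GRCm38.p6. Reads were fitted with edgeR 4.0.16 in R 4.3.3 (quasi-likelihood, deposited size factors, all 11 libraries, Benjamini-Hochberg over 126854 tests, the highest region number, threshold 0.05), after checks on simulated counts. SEs are the log2 fold divided by the root of F. DESeq2 1.42.0, other scalings, filters, distances and left-out libraries were alternatives. Every region of a member is named, with its most correlated region outside the family. Members and lists were chosen with earlier results of these data known. No mm10 genome was used, so motifs were searched in promoter windows only, in place of top bins. The counts for 1 further gene list are not reported here.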

Additional observations from a re-analysis of the deposited data

Results flagged for a closer look

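Among the 18 groups of libraries tested (9 regions in each genotype), 2 held a library far from the others by Dixon's criterion. Normally distributed values meet it by chance in about 1 in 20 groups. Both groups were controls at Sema6d. In the first Sema6d region, control replicate 3 had 3.37 normalised reads and the other controls 0. In the second, control replicate 2 had 4.77 and the other controls 0. In each case the gap equals the whole range, because a single control library held all control reads (3 and 7), and it was a different library in each region. The rate of 1 in 20 does not hold for such groups of mostly 0 reads.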

How the results depend on the processing

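The 9 regions were higher in Tbx5G125R/+ with gene bodies only, with 50 kb in place of 100 kb, with the midpoint of the whole region, under total-read scaling and without each library, and 8 or 9 did not overlap, except under total-read scaling (5). The number passing the count test was 8, and it was 0 with TMM factors and 4 with total reads, the latter an alternative chosen after seeing the data. It was 9 with DESeq2, with its size factors and with adjustment over listed regions only, 8 with low bins filtered out, 8 to 9 without single libraries and 7 with the replicate block. Same-numbered libraries had correlations of -0.145 to -0.0165, so numbers were taken as names, and no control correlated best with its own number. Over all listed regions 1437 passed, 459 with TMM, 946 with total reads and 774 with the replicate block, and 85.1% of those passing were higher, against 31.8%, 66.9% and 90.4%. Of 180 alternative log2 folds 165 moved by less than 1 SD between libraries, 14 by more, 7 of them with TMM, and 1 reversed (Sema6a, whose log2 fold was -0.073 with TMM); the cause was not tested. Sema5a went from 2.17 to 0.41 with TMM and counts among the 165, because the control at 0 widens its SD. The log2 folds that rest on few control reads ranged widest without single libraries, from 4.29 to 7.69 and 3.77 to 7.94 at Sema6d and from 4.51 to 5.96 at Plxna4. Depth limits these folds, since controls held 3 to 20 reads at Sema6d, Plxna4 and Nrp1.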
